A study of Mus musculus with 10 samples.

Results

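Messenger RNA levels of 9 transcription factors of the interneuron lineage (Dlx1, Dlx2, Dlx5, Dlx6, Lhx6, Sox6, Maf, Prox1 and Sp9) were compared between Arid1b+/– mice (HT) and wild-type mice (WT). The genes were taken by their symbols, and all 9 were found among the 18216 genes of the deposited table. Prefrontal cortex was taken from 10 males of the C57BL/6N strain at postnatal day 10 (P10), and each mouse gave 1 library, numbered HT1 to HT5 for the 5 HT mice and WT1 to WT5 for the 5 WT mice. Arid1b codes for a subunit of a chromatin-remodelling complex. The HT mice carried 1 Arid1b allele with a truncating change in exon 5 in the germ line, so the change was in all cells and not only in interneurons, and the WT mice carried none. The labels name no further allele and no treatment for either group. The mutation came from a single gene-edited line, and the labels do not say which mice shared a litter.

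Inhibitory interneurons of the cortex are born in the ganglionic eminences of the ventral forebrain and migrate into the cortex. Dlx homeobox factors specify the GABAergic fate in progenitors and young neurons of all eminences, whereas Lhx6, Sox6 and Maf act in interneurons of the medial eminence, which become somatostatin and parvalbumin cells, and Prox1 marks interneurons of the caudal eminence, such as VIP cells. Sp9 is a zinc-finger factor of the lateral and medial eminences that is also used by striatal neurons and by the granule and periglomerular interneurons of the olfactory bulb. Several Dlx genes remain active in the striatum and the olfactory bulb after birth as well.

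The 9 genes lie at 7 sites of the mouse genome, and 2 of these sites hold a pair (GRCm38, positions from GENCODE M21). Dlx1 (ENSMUSG00000041911, chr2:71528113-71533981, plus strand) and Dlx2 (ENSMUSG00000023391, chr2:71543408-71546754, minus strand) are a tail-to-tail pair within 18.6 kb. Dlx6 (ENSMUSG00000029754, chr6:6863334-6868568, plus strand) and Dlx5 (ENSMUSG00000029755, chr6:6877805-6882085, minus strand) form the other pair, within 18.8 kb. Sp9 (ENSMUSG00000068859, chr2:73271925-73284706, plus strand) starts 1.74 Mb from the start of Dlx1, and Lhx6 (ENSMUSG00000026890, chr2:36081953-36105408, minus strand) is elsewhere on the same chromosome. Sox6 (ENSMUSG00000051910, chr7:115470872-116038796, minus strand), Maf (ENSMUSG00000055435, chr8:115682942-115707794, minus strand) and Prox1 (ENSMUSG00000010175, chr1:190118035-190170714, minus strand) are single genes on other chromosomes.

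The bases just before the start of 3 of the genes are shown for Dlx2 and Sp9, which were highest in the same mice, and for Lhx6, which was not. The sequences are the 250 bases upstream of the first listed RefSeq start (GRCm38.p6), written 5′ to 3′ on the strand of the gene, with matches to GGGCGG or to its reverse complement CCGCCC, the core of the GC box bound by Sp factors, in capitals. They cover chr2:71546755-71547004 for Dlx2, chr2:73271676-73271925 for Sp9 and chr2:36105409-36105658 for Lhx6, all outside annotated exons except the last base of the Sp9 window.
Dlx2: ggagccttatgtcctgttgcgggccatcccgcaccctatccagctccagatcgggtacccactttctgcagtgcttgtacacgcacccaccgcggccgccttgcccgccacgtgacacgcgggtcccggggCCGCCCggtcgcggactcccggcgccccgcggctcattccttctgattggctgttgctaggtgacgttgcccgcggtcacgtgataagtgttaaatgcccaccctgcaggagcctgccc
Sp9: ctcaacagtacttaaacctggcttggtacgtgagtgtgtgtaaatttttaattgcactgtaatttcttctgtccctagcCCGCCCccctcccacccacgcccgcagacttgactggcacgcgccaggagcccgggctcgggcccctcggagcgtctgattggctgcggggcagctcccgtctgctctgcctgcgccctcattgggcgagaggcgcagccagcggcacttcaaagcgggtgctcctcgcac
Lhx6: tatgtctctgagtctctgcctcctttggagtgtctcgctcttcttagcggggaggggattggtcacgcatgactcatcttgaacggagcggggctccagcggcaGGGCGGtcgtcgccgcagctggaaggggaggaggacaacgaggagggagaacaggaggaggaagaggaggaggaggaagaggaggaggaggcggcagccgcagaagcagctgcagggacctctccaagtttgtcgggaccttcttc
Each of these windows held 1 such match. The window of Dlx1, which was also highest in HT2 and WT4, is not shown. It held 0 matches, and all of its 250 bases lie in an annotated exon of Dlx1. RefSeq windows were available for 6 of the 9 genes (Dlx1, Dlx2, Lhx6, Sox6, Prox1 and Sp9), with 14 start sites in all. GGGCGG or CCGCCC was found at 7 of the 14 starts and in 32.7% of 32851 mouse promoter windows of the same length. TAATTA, which does not overlap GGGCGG and is the palindromic core that homeodomain proteins bind, was found at 0 of the 14 starts and in 4.84% of the windows.

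The deposited value of a gene, here called the normalised count, is an estimated read count divided by a size factor of the library. Per mouse these values summed to between 31106330 and 32106791, which is not the sequencing depth. Depth is unknown, and the spread between mice is the only measure of precision. Arid1b itself was lower in HT (1894 ± 86.6, SD, n = 5) than in WT (2842 ± 142, SD, n = 5) with no overlap, which matches the labels. Cortical excitatory markers, as a check of the labelled tissue, summed to between 57033 and 77624 per mouse. The lowest sums were 57033 in HT2 and 63276 in WT4, against 68081 to 77624 in the other 8 mice. Striatal and olfactory bulb markers were also present, in amounts that differed between mice. The 12 striatal projection neuron markers summed to between 15032 and 23436 in 7 mice and to only 7434, 6406 and 6649 in HT5, WT3 and WT5, where Isl1 was at or near 0. The 6 olfactory bulb markers summed to 3173 in HT2 and 3154 in WT4, against 536 to 1873 in the other 8 mice. HT2 also had the highest mitochondrial share, 8.43% of its normalised counts against 5.15% to 6.76% in the other 9 mice. HT2 and WT4 therefore stand apart. In bulk tissue, fewer cells of a type and less RNA per cell cannot be told apart.

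The genotype difference was within the spread between mice for each of the 9 factors. In limma with Benjamini-Hochberg adjustment over all 16781 genes with a mean of at least 10, 0 of 9 passed an adjusted p of 0.05 (0.0179% of all tested genes did), and 0 of 9 had an unadjusted p under 0.05 (9.23% of all tested genes, 4.71% higher and 4.52% lower in HT). Exact permutation of the mice over all possible assignments gave 0 of 9 under 0.05 as well, with p between 0.222 (Dlx2) and 0.976 (Sox6). In 0 of 9 did all HT values lie on one side of all WT values (1.62% of all tested genes, 0.703% higher and 0.918% lower in HT). The fitted log2 fold change was above 0 for 7 factors and below 0 for Maf and Prox1, though the sign of Dlx1, Dlx6, Sox6 and Prox1 turned under other settings or with a mouse left out. The median was 0.08, against a median of -0.0035 over all tested genes. The precision of these comparisons was unequal. The 95% confidence intervals of Lhx6, Maf and Prox1 left room for changes of at most about 0.21 on the log2 scale in either direction, whereas those of Dlx1 and Dlx2 reached 0.77 and 1.02.

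**Figure D1:**
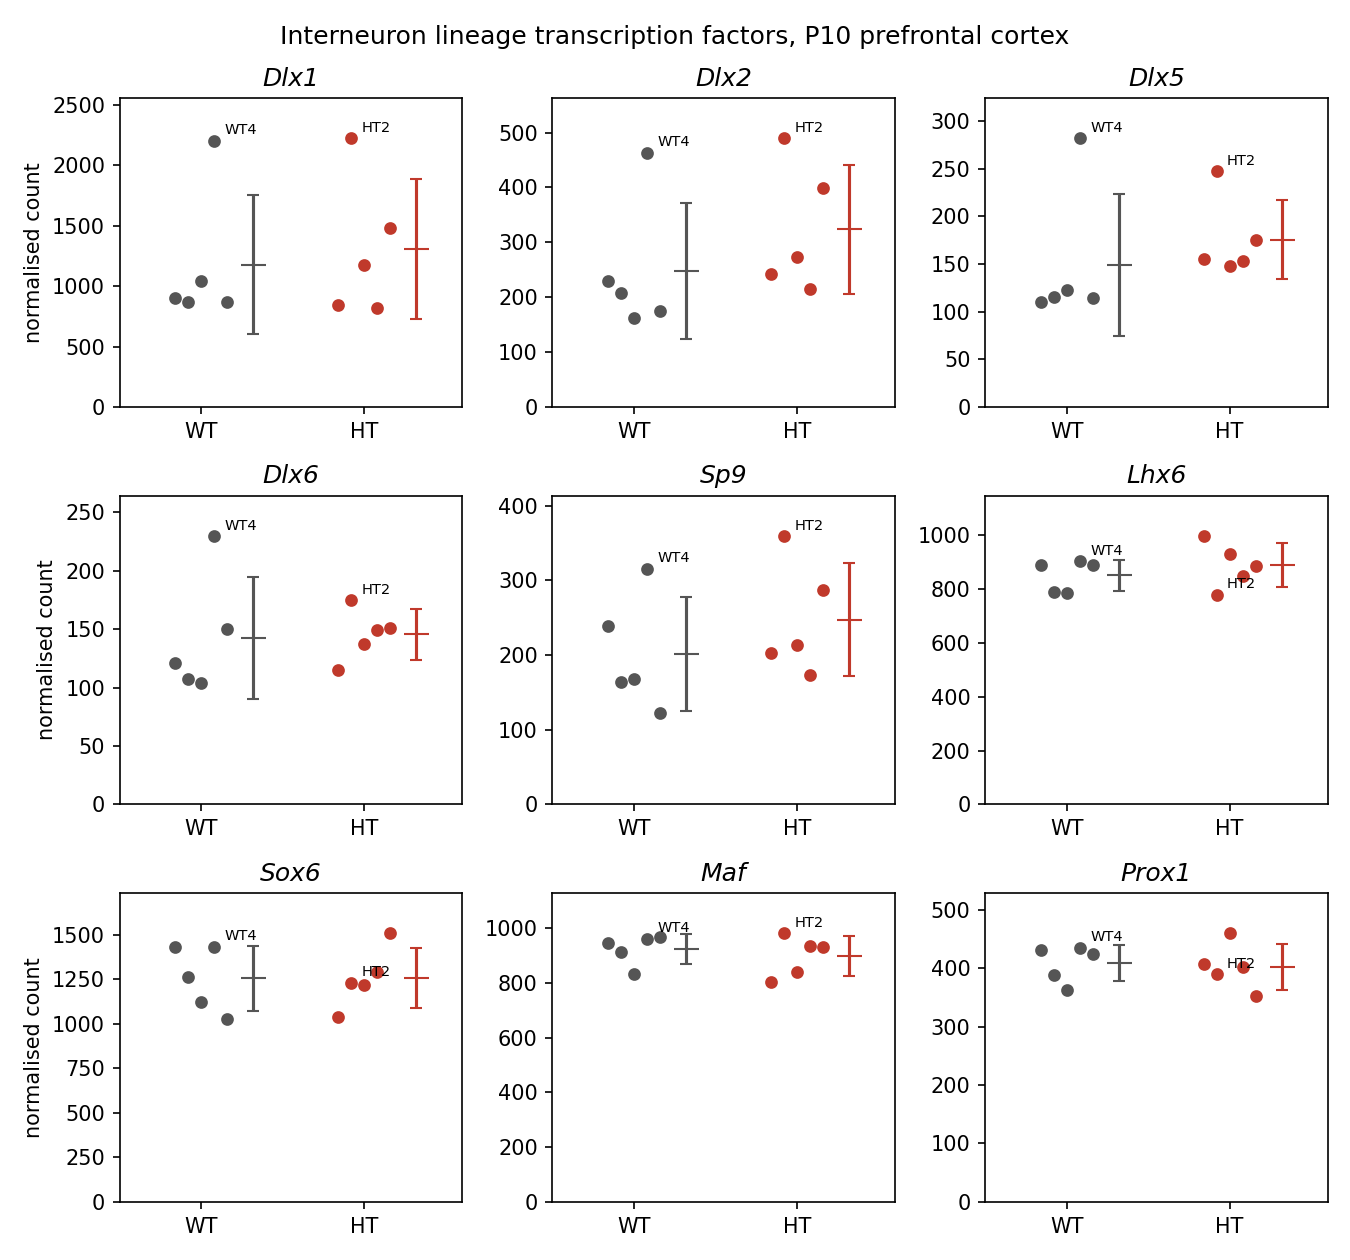
Normalised count (vertical axis, from 0) of the 9 factors in 5 WT (grey) and 5 HT (red) mice, 1 point per mouse, with the mean and SD of each group beside the points. HT2 and WT4 are labelled and hold the 2 highest values of Dlx1, Dlx2, Dlx5, Dlx6 and Sp9, while Lhx6, Maf and Prox1 have a narrow spread in both groups.

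Dlx1 and Dlx2 code for homeobox factors that act early in GABAergic specification. Normalised counts of Dlx1 were 845, 2225, 1175, 823 and 1486 in the HT mice 1 to 5 and 901, 870, 1045, 2205 and 871 in the WT mice 1 to 5. One mouse of each genotype, HT2 and WT4, was thus well above every other mouse, and the groups overlapped. HT mice averaged 1311 ± 579 and WT mice 1178 ± 579 (SD, n = 5 each), a difference of 0.16 ± 0.29 on the log2 scale (SE, adjusted p = 0.875 in limma). Dlx2 reached 241, 490, 272, 214 and 400 in the HT mice 1 to 5 and 229, 207, 162, 463 and 174 in the WT mice 1 to 5. Apart from WT4, only WT1 lay above the lowest HT value. The difference of 0.43 ± 0.28 on the log2 scale (SE, adjusted p = 0.617 in limma) was the largest of the 9 fitted values.

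Dlx5 and Dlx6 follow Dlx1 and Dlx2 in the same cells and share a locus with common enhancers. Dlx5 was 155, 247, 148, 153 and 175 in the HT mice 1 to 5 and 110, 115, 123, 282 and 114 in the WT mice 1 to 5. The lowest HT value was higher than 4 of the 5 WT values, and only WT4 broke the separation. The fitted HT minus WT value was 0.32 ± 0.24 on the log2 scale (SE, adjusted p = 0.664 in limma). Dlx6 ranged from 115 to 175 in HT and from 104 to 230 in WT, again with HT2 and WT4 highest, and the genotypes differed by 0.08 ± 0.20 on the log2 scale (SE, adjusted p = 0.903 in limma). In Dlx6, 7.64% of the 31-base words of the transcripts also occur in other genes, the largest share among the 9. By this measure its value is the least certain to belong to it alone.

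Sp9 was highest in the same mice as the Dlx genes. Its normalised counts were 202, 360, 213, 174 and 287 in the HT mice 1 to 5 and 239, 164, 168, 316 and 123 in the WT mice 1 to 5, with a fitted difference of 0.32 ± 0.24 on the log2 scale (SE, adjusted p = 0.669 in limma). HT2, WT4 and HT5 held the 3 highest values, in that order.

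The factors of the medial and caudal eminences had closely similar means in both genotypes. Lhx6, required for the migration and fate of medial-eminence interneurons, was 997, 778, 930, 848 and 887 in the HT mice 1 to 5 and 888, 788, 786, 902 and 888 in the WT mice 1 to 5 (0.06 ± 0.07 on the log2 scale, SE, adjusted p = 0.791 in limma). Maf, which acts in the same lineage, spanned only 802 to 981 in HT and 833 to 967 in WT (-0.04 ± 0.07 on the log2 scale, SE, adjusted p = 0.849 in limma). Sox6, which acts downstream of Lhx6 and is also expressed in oligodendrocyte precursors, averaged 1258 ± 169 in HT and 1255 ± 183 in WT (SD, n = 5 each, adjusted p = 0.990 in limma). Prox1, a homeobox factor of caudal-eminence cells, averaged 402 ± 38.6 in HT and 408 ± 31.1 in WT (SD, n = 5 each, adjusted p = 0.934 in limma). HT2 and WT4 were not set apart in any of these 4 genes, and the means of this pair were 0.96 (Lhx6) to 1.08 (Sox6 and Maf) times the mean of the other 8 mice. With single mice left out, the log2 difference of Lhx6 ranged from 0.017 (without HT1) to 0.11 (without HT2) and that of Maf from -0.079 to -0.0021 (without HT1). Without HT2 and WT4, Lhx6 gave 0.13 (adjusted p = 0.607 in limma), and with the microglia score as a covariate Maf gave -0.12.

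**Figure D2:**
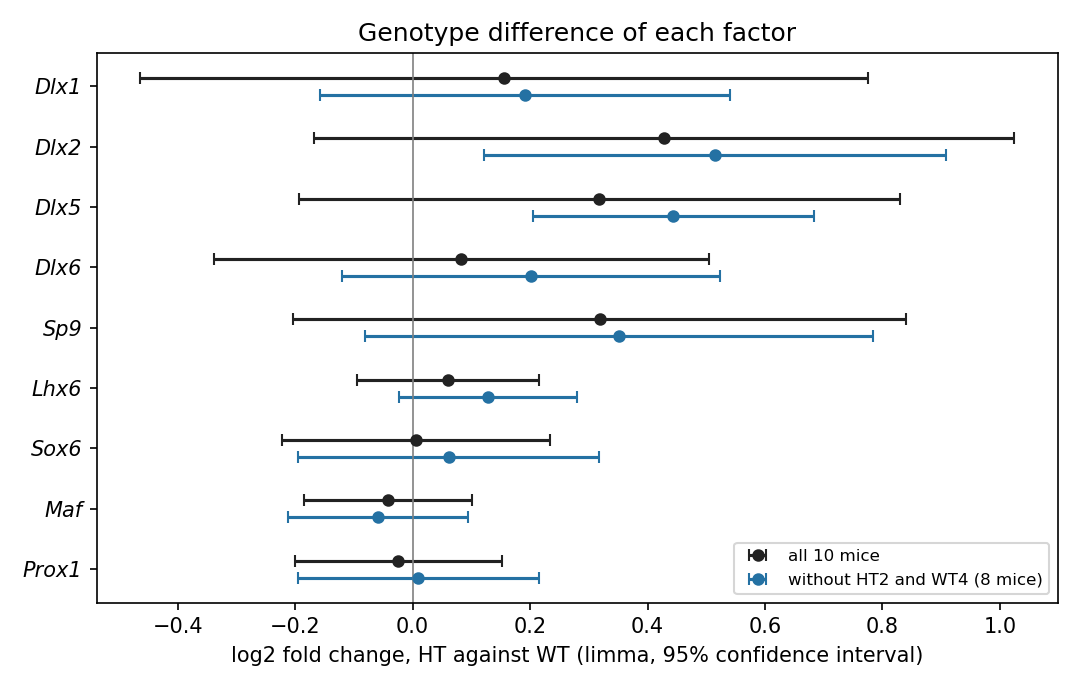
Log2 fold change of each factor, HT against WT, from limma with its 95% confidence interval, for all 10 mice (black) and without HT2 and WT4 (blue, 8 mice). With all mice every interval spans 0, and without this pair the intervals of Dlx2 and Dlx5 lie above 0. The intervals are not adjusted for the number of genes, and the pair was left out after the data had been seen. The adjusted p in limma without the pair was 0.483 for Dlx2 and 0.395 for Dlx5.

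Over all 10 mice, the 9 factors fell into a variable group and a steady one. Dlx1, Dlx2, Dlx5, Dlx6 and Sp9 had their 2 highest values in HT2 and WT4 and their next highest in HT5, a pattern of 5 of 9 factors against 5.07% of all tested genes for the 2 highest values. The mean of HT2 and WT4 was 2.21 times the mean of the other 8 mice for Dlx1, 2.01 for Dlx2, 1.94 for Dlx5, 1.72 for Sp9 and 1.56 for Dlx6. The spread between mice within genotype, as the residual SD, stood at the 85.1 to 95.3 percentile of all tested genes for these 5, and at the 33.6 (Maf) to 66.3 (Sox6) percentile for the other 4. Over all 10 mice the highest value was 2.21 to 3.02 times the lowest in the variable group and 1.22 to 1.47 times in the steady one. Without HT2 and WT4 the split by spread did not hold in full. The residual SD then stood at the 80.7 (Dlx1), 82.2 (Dlx2) and 85.2 (Sp9) percentile, but at the 32.3 percentile for Dlx5, the lowest of the 9 factors, and at the 70.1 percentile for Dlx6, next to Sox6 at 70.8. The highest of these 8 mice was 1.45 times the lowest for Dlx6 and 1.47 times for Sox6. These groupings were made after the values were seen and carry no test.

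**Figure D3:**
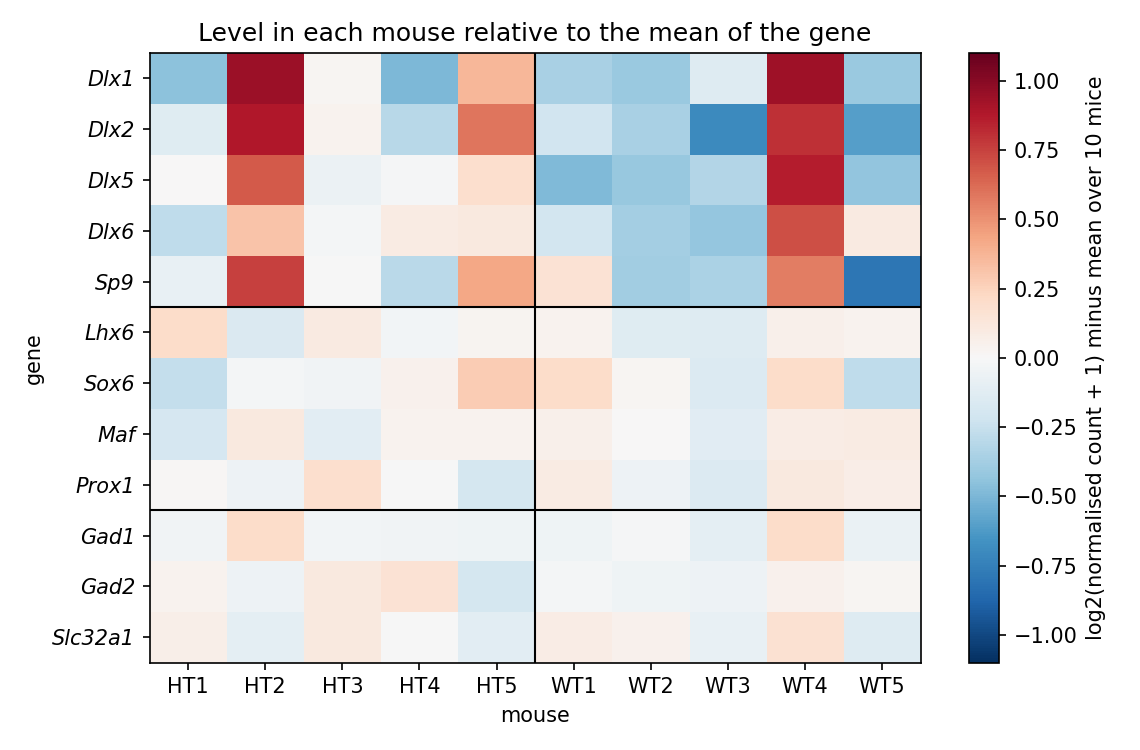
Level of the 9 factors and of Gad1, Gad2 and Slc32a1 in each of the 10 mice, as log2(normalised count + 1) minus the mean of the gene over the 10 mice (red above, blue below the mean). Each of the upper 5 genes has its 2 highest values in HT2 and WT4, and the lowest values of these genes, such as Sp9 in WT5, lie in other mice. The 4 factors below them span a narrower range.

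The variable group was compared again without HT2, without WT4 and without the pair. Without HT2, the log2 difference was -0.061 for Dlx1, 0.26 for Dlx2, 0.19 for Dlx5, 0.014 for Dlx6 and 0.17 for Sp9, and 0 of 9 factors had an unadjusted limma p under 0.05. Without WT4, 3 of 9 factors had an unadjusted limma p under 0.05, all higher in HT, against 10.9% of all tested genes with the same mice (5.76% higher in HT). They were Dlx2, with a log2 difference of 0.68 (adjusted p = 0.372 in limma), Dlx5, with 0.57 (adjusted p = 0.32), and Sp9, with 0.50 (adjusted p = 0.444). Dlx5 then no longer overlapped between the groups, with HT values of at least 148 and WT values of at most 123, as for 3.9% of all tested genes (1.7% higher in HT). Without both HT2 and WT4, 2 of 9 factors had an unadjusted limma p under 0.05, both higher in HT, against 8.99% of all tested genes (4.51% higher in HT). They were Dlx2, with a log2 difference of 0.52 (adjusted p = 0.483 in limma), and Dlx5, with 0.44 (adjusted p = 0.395). Dlx1, Dlx6 and Sp9 gave 0.19, 0.20 and 0.35. Dlx5 averaged 158 ± 12.0 in the remaining HT mice and 115 ± 5.49 in the remaining WT mice (SD, n = 4 each), again without overlap, as for 5.02% of all tested genes (2.21% higher in HT). The pair was left out after the data had been seen, and with none of these 3 selections did any of the 9 pass the adjusted threshold.

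The olfactory bulb markers were highest in the same mice as the variable group. All 6 of them (Tbx21, Eomes, Cdhr1, Doc2g, Th and Barhl2) were highest in HT2 and WT4, and 1, Barhl2, was at or near 0 in several of the others. Cdhr1, the most abundant, was 2009 in HT2 and 2197 in WT4 and between 391 and 1382 in the other 8 mice. Of the 8 markers of immature neurons and dividing cells, 4 had their 2 highest values in HT2 and WT4, and their summed level was 23281 in WT4 and 19865 in HT2 against 16025 to 18544 in the others. The next-highest sum of olfactory bulb markers, 1873, was in WT3, which held the lowest value of Dlx2 and of Dlx6 and, after WT4, the highest WT value of Dlx1 and of Dlx5. The striatal markers were lowest in HT5, WT3 and WT5, of which HT5 came next after the pair in each of the 5 variable factors. The part of neighbouring tissue in the differences between mice was not tested. With the olfactory bulb score as a covariate, the fitted HT minus WT values were -0.06 for Dlx1, 0.27 for Dlx2, 0.16 for Dlx5, -0.01 for Dlx6 and 0.18 for Sp9 on the log2 scale, and their adjusted p in limma was between 0.727 and 0.994. With the microglia score as a covariate they were -0.12, 0.13, 0.18, -0.030 and 0.12 in the same order, and with the oligodendrocyte precursor score -0.067, 0.13, 0.17, -0.061 and 0.088. Between the genotypes, 12 of 12 striatal, 5 of 5 tested olfactory bulb, 10 of 10 microglia, 10 of 10 astrocyte, 9 of 10 oligodendrocyte precursor and 5 of 8 immature neuron and dividing cell markers had a higher fitted level in HT, as did 3 of 10 cortical excitatory markers, and 0 of them passed the adjusted p. An unadjusted p under 0.05 was reached by 8 astrocyte markers, 3 microglia markers, 1 oligodendrocyte precursor marker and 1 immature neuron and dividing cell marker, all higher in HT (4.71% of all tested genes), and by 2 cortical excitatory markers, lower in HT (4.52%). For 2 astrocyte markers HT and WT did not overlap, higher in HT (0.703% of all tested genes). Gfap, an astrocyte marker named after its values were seen, was 13936 in HT5 and between 3072 and 5007 in the other 9 mice. The summed astrocyte markers ranged from 169690 to 214063 in HT and from 153878 to 180861 in WT, with HT2 and HT5 highest. The astrocyte score was 1.39 in HT2 and 1.48 in HT5. It was -0.21 to 0.43 in the other HT mice and -1.14 to -0.13 in WT. Of the scores of the 8 marker lists, 0 passed adjustment over the lists, and 1 had an unadjusted p under 0.05, that of the astrocyte markers, higher in HT (exact permutation p = 0.0238, adjusted p = 0.190). The summed microglia markers ranged from 11011 to 15378 in HT and from 10722 to 12337 in WT, with HT2 and HT5 highest.

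**Figure D4:**
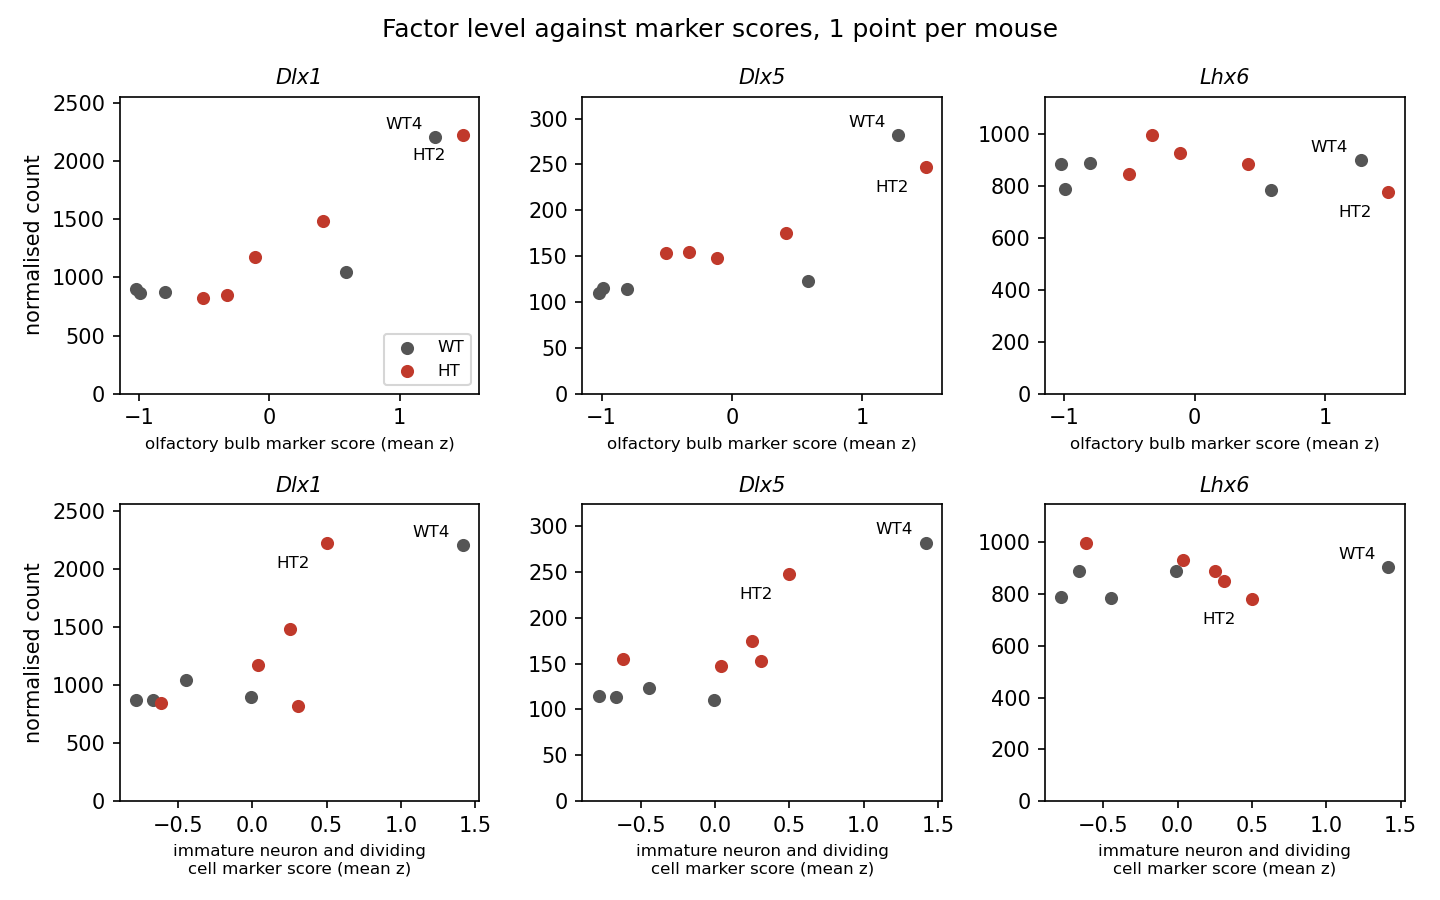
Normalised count of Dlx1, Dlx5 and Lhx6 against the olfactory bulb marker score (upper row) and the immature neuron and dividing cell marker score (lower row), 1 point per mouse, WT grey and HT red. A score is the mean z-score of the listed genes. HT2 and WT4, labelled, are farthest right and highest for Dlx1 and Dlx5 but not for Lhx6.

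Over all 10 mice, as planned, 9 of 36 pairs of factors passed Benjamini-Hochberg adjustment by Pearson's r, all among Dlx1, Dlx2, Dlx5, Dlx6 and Sp9, and 1 by Spearman's rho (Dlx2 and Sp9). Of 54 relations between a factor and a marker score, 6 passed by Pearson's r, namely olfactory bulb with Dlx1 and Dlx5 and immature neuron and dividing cell with Dlx1, Dlx2, Dlx5 and Dlx6, and 0 by Spearman's rho. Because HT2 and WT4 form a cluster, the size of the relations is given over the other 8 mice. There, of the 36 pairs of factors, 0 passed Benjamini-Hochberg adjustment and 3 had an unadjusted p under 0.05. The closest pair was Dlx2 and Sp9 (n = 8, Pearson r = 0.85, exact permutation p = 0.00972, adjusted p = 0.350, Spearman rho = 0.86, exact p = 0.0107, adjusted p = 0.386). Without the 2 mice farthest from the median of Dlx2, r was 0.86. Of the 54 relations with a marker score, 0 passed adjustment over these 8 mice (smallest adjusted p = 0.451) and 4 had an unadjusted p under 0.05. The 4 were the astrocyte score with Dlx2 (r = 0.87, rho = 0.64) and with Dlx5 (r = 0.72, rho = 0.62), the oligodendrocyte precursor score with Sox6 (r = 0.73, rho = 0.86) and the olfactory bulb score with Dlx1 (r = 0.72, rho = 0.50). Without the 2 mice farthest from the median of the score, r was 0.25, 0.60, 0.90 and 0.52 in this order, so the first rests on those mice. Dlx2 and Dlx5 are also the factors that were higher in HT by the unadjusted p in these 8 mice, and the part of the astrocyte markers in this was not tested. The correlations pool HT and WT mice without removing genotype. A genotype difference common to a factor and a score therefore enters r and its p, and values within each genotype are not given.

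The levels per kb of exonic sequence, which allow different genes to be compared, were ordered in WT as Dlx1 (218 ± 107, SD, n = 5), Lhx6 (177 ± 12.1), Maf (112 ± 6.69), Dlx2 (86.6 ± 43.3), Sox6 (84.6 ± 12.3), Dlx5 (65.7 ± 32.9), Dlx6 (59.98 ± 21.9), Prox1 (48.7 ± 3.71) and Sp9 (40.0 ± 15.1), all in normalised counts per kb. Lhx6 and Maf were the only neighbours in this order whose WT values did not overlap, 163 to 188 against 101 to 117. Dlx1 ranged from 161 to 409 per kb in WT, with the highest value in WT4. Without WT4 the order turned at the top, with Lhx6 at 174 ± 12.1 and Dlx1 at 171 ± 15.5 per kb (SD, n = 4 each), and Sox6 at 81.6 stood above Dlx2 at 67.6. The exonic length counts the bases of all annotated transcripts, which can be more than this tissue expresses, so the order is approximate.

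**Figure D5:**
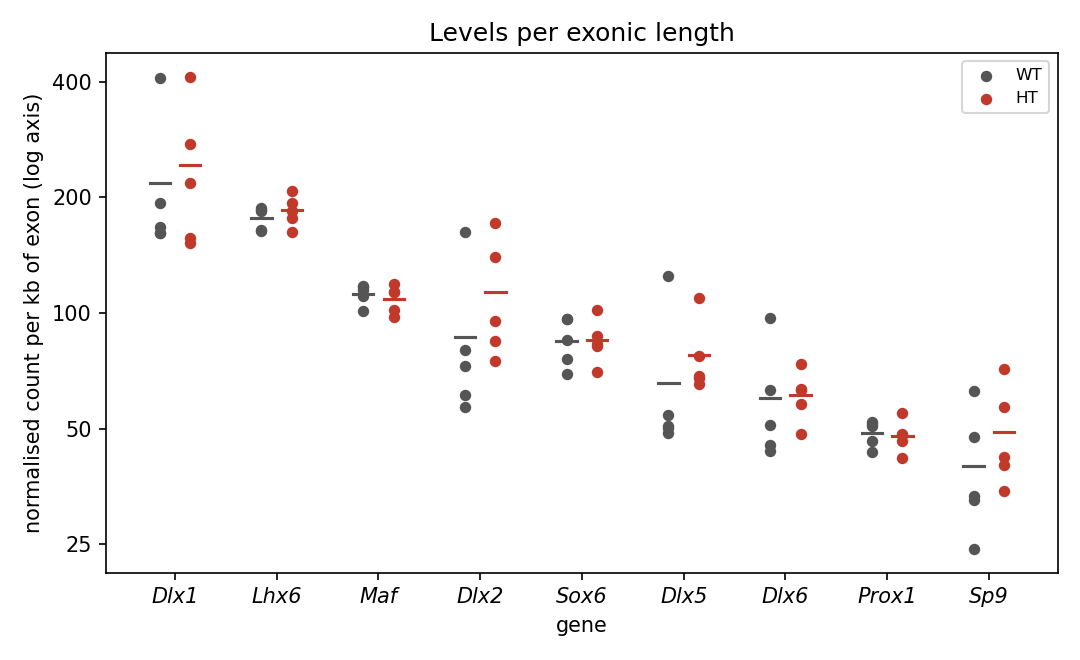
Normalised count per kb of exonic sequence (log axis) of the 9 factors, ordered by the WT mean, in WT (grey) and HT (red) mice, 1 point per mouse, with a line at each group mean. Dlx1 and Lhx6 have the highest means in both groups, and the lowest mean is that of Sp9 in WT (40.0) and of Prox1 in HT (47.9). In WT the neighbours overlap except Lhx6 and Maf.

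Antisense genes of the Dlx loci were examined next. Dlx1as, whose exons share 335 bases with Dlx1 on the opposite strand, was 113, 131, 128, 116 and 116 in the HT mice 1 to 5 and 91.6, 113, 79.6, 114 and 76.4 in the WT mice 1 to 5 (0.36 ± 0.14 on the log2 scale, SE, adjusted p = 0.496 in limma, with an unadjusted p under 0.05). Dlx6os1, also known as Evf2 and transcribed through the Dlx5-Dlx6 locus, was highest in WT4 (988) and HT2 (886) and between 411 and 606 in the other mice, with a genotype difference of 0.15 ± 0.21 on the log2 scale (SE, adjusted p = 0.825 in limma). Whether the counting used strand is not stated, so reads of Dlx1 and Dlx1as cannot be fully told apart in the shared bases. The same holds for the exonic bases that Maf (440), Sp9 (270), Prox1 (133) and Dlx6 (104) share with other genes on the opposite strand.

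Of 14 other regulators of the same lineage, 11 passed the filter on low values, 7 higher and 4 lower in HT, and 0 passed the adjusted p. Nkx2-1, Lhx8 and Gsx2, factors of the embryonic eminences, were left out by the filter, with values of at most 18.2, 9.35 and 14.2. Of the 11, 1 had an unadjusted p under 0.05, lower in HT, against 4.52% of all tested genes. It was Zeb2, a zinc-finger factor needed to silence Nkx2-1 in migrating interneurons (-0.12 ± 0.05 on the log2 scale, SE, adjusted p = 0.514 in limma). St18 gave 0.57 ± 0.34 on the log2 scale (SE, adjusted p = 0.596 in limma). Sp8, a close relative of Sp9 and named here after its values were seen, was 380 in HT2 and 289 in WT4, 214 in HT5 and between 62.3 and 126 in the other 7 mice.

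Of 21 genes that mature interneurons use, 10 were higher and 11 lower in HT and 0 passed the adjusted p. Their median HT minus WT value was -0.0071 on the log2 scale. By the unadjusted p, 1 was higher (Npy) and 1 lower (Vip), close to the background of 4.71% and 4.52% of all tested genes. Npy, the neuropeptide of a subset of somatostatin and neurogliaform cells, averaged 1831 ± 44.2 in HT and 1632 ± 58.8 in WT (SD, n = 5 each) without overlap, as 0.703% of all tested genes did in this direction. The difference was 0.17 ± 0.04 on the log2 scale (SE, adjusted p = 0.390 in limma). Vip, the peptide of caudal-eminence cells, averaged 735 ± 44.0 in HT and 823 ± 82.6 in WT (SD, n = 5 each, adjusted p = 0.540 in limma), and Kcnc2, a potassium channel subunit of fast-spiking cells, gave -0.14 ± 0.08 on the log2 scale (SE, adjusted p = 0.573 in limma). The genes that define the GABAergic state had closely similar means. Gad1 and Gad2, which make GABA, and Slc32a1, which loads it into vesicles, differed by 0.02, 0.02 and -0.03 on the log2 scale (adjusted p = 0.937, 0.913 and 0.903 in limma). Gad1 was nevertheless highest in HT2 (5111) and WT4 (5096), against 4126 to 4386 in the other 8 mice, which Gad2 and Slc32a1 did not follow. In all, 5 of the 21 effector genes (Gad1, Calb2, Cxcr4, Htr3a and Ndnf) and 2 of the 14 other regulators (Sp8 and Nr2f2) had their 2 highest values in HT2 and WT4, against 5.07% of all tested genes. Calb2, which codes for calretinin, was 1772 in HT2, 1334 in WT4 and between 485 and 1253 in the other 8 mice. Apart from Gad1, these names were chosen once the values were known.

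The genes whose pattern over the mice was most like that of a factor were listed for 3 factors, among 13887 genes with a mean of at least 50. For Dlx1 they were Cacng5, Tshz1 and Isoc1, whose Pearson r over the 8 mice other than HT2 and WT4 was 0.89, 0.83 and 0.81. For Lhx6 they were Pelp1 (r = 0.95 over 10 mice), Aarsd1 (0.93) and Eif3b (0.90), and for Maf they were Faap20 (0.96), Tent5c (0.96) and Wdfy2 (0.95). These are the highest of many values and carry no test.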

How the data were processed

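RNA from the prefrontal cortex of 10 male mice was sequenced by the authors from poly-A libraries made with a stranded kit. Per the labels and methods, the authors estimated transcript abundance with Salmon 1.1.0 on GRCm38, summed it to genes with tximport and divided it by DESeq2 1.30.1 size factors, so the deposited values are a normalised signal (normalised counts). Whether strand was used in counting is not stated in the sources used here. Between 5.64% and 15.3% of low values were whole multiples of 1 step (tolerance 0.02), so reads were not recovered and no count test was run.

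Groups and replicate numbers came from the sample titles. Symbols and positions came from GENCODE M21 (18205 of 18216 identifiers matched). Genes with a mean of at least 10 were tested on log2(value + 1) with limma 3.58.1 in R 4.3.3 (lmFit, eBayes with a trend), with genotype as the only factor and Benjamini-Hochberg adjustment over all genes. Log2 fold changes on this scale understate changes of low genes. Each library is 1 mouse, but litters and batches are not given, so p-values measure only the spread between these mice. Single values were also compared by exact permutation over all assignments, all tests being two-sided, with 0.00794 the smallest p possible. A marker score was the mean z-score of a list. Correlations were planned over 10 mice (100000 resamples) and are also given over 8 (exact), since HT2 and WT4 stood apart. Both pooled HT and WT mice. In simulated data for the same comparison, 84.9% of 200 genes with a true log2 change of 1 were called, and 4.28% of the calls were false. This rate is over genes of all spreads and does not describe factors with a wide spread between mice.

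Named genes were the 9 factors, Arid1b, both Dlx antisense genes, Gad1, Gad2 and Slc32a1, in the lists of other regulators and of effectors the 3 genes with the smallest p and those left out by the filter, and for 3 factors the 3 genes most alike. Isl1, Gfap, Cdhr1 and the other olfactory bulb markers, Sp8, Nr2f2, Calb2, Cxcr4, Htr3a and Ndnf fall outside this rule and were named after their values were seen. A further gene of the list of other regulators, named by this rule, is not reported here, and the counts of that list leave it out. The members and lists were chosen with earlier results of these data known. Alternatives were pseudocounts of 0.5 and 10, no filter or a mean of 50, upper-quartile and quantile scaling, no variance trend, sample weights, the replicate block, marker scores as covariates, an adjusted p under 0.1 and each mouse left out. Computations used Python 3.11.15 with numpy 2.4.6, pandas 2.3.3 and scipy 1.17.1.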

Additional observations from a re-analysis of the deposited data

Results flagged for a closer look

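In groups of 5 mice, a highest or lowest value was marked as standing apart where its gap to the nearest other mouse, divided by the range of the group, was over 0.71 (Dixon). This held for 9 values in 46 groups examined, and chance marks about 1 in 20 groups, or 2.3 here. The groups are not independent, since related genes were read in the same mice, so 9 against 2.3 is not a test. Dlx1 in WT4 was 2205, against 870 to 1045 in the other WT mice. Dlx2 in WT4 was 463, against 162 to 229. Dlx5 stood apart in both groups, at 282 in WT4 against 110 to 123, and at 247 in HT2 against 148 to 175. Dlx6os1 was 988 in WT4, against 411 to 511. Gad1 was 5111 in HT2, against 4291 to 4333 in the other HT mice, and 5096 in WT4, against 4126 to 4386. The score of Gad1, Gad2 and Slc32a1 was -1.17 in HT5, against 0.09 to 0.58 in the other HT mice. The score of cortical excitatory markers was -0.71 in WT4, against 0.25 to 0.57 in the other WT mice. Of these 9 values, 6 are in WT4, 2 in HT2 and 1 in HT5.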

How the results depend on the processing

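The number of the 9 factors past an adjusted p of 0.05 was 0 under every alternative run, and the smallest adjusted p of any factor was 0.32 (Dlx5 without WT4). The number with an unadjusted p under 0.05 was 0 under all alternatives that kept every mouse, 0 to 3 when single mice were left out (3 without WT4) and 2 without HT2 and WT4. The number without overlap was 0 to 1 when single mice were left out and 1 without HT2 and WT4 (Dlx5 in each). The fitted log2 fold change changed sign in 22 cases in Dlx1, Dlx6, Sox6 and Prox1, and the cause was not tested. With the olfactory bulb, microglia and oligodendrocyte precursor scores as covariates, Dlx1 was -0.062, -0.12 and -0.067, Dlx6 was -0.0068, -0.030 and -0.061, and Sox6 was -0.012, -0.058 and -0.099. With the striatal score Sox6 was -0.020, with sample weights Sox6 was -0.012 and Prox1 was 0.0047, with the microglia score Prox1 was 0.046, and without HT2 and WT4 Prox1 was 0.0098. With single mice left out, Dlx1 ranged from -0.061 (without HT2) to 0.41 (without WT4), Dlx6 from -0.014 to 0.27, Sox6 from -0.065 to 0.071 and Prox1 from -0.074 to 0.022. The replicate numbers are shared between the groups, and whether they pair the mice was not tested. Correlations of same-numbered deviations were weak (-0.04 to 0.10), with a mean of 0.038 against -0.0091 for mice of other numbers. HT1, HT3 and HT5 matched the WT mouse of their own number best and HT2 matched WT4. With the number as a block, 0 of 9 factors and 3 of all genes passed, as without it, and Dlx2 stayed at 0.43 on the log2 scale (adjusted p = 0.653 in limma). Depth is unknown, so no limit of detection can be given.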
